A study of Mus musculus with 3 samples.

Results

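The 8 genes described here bind, make, sense, import or degrade retinoids, and they were followed in 3 single-cell libraries of mouse fibroblasts undergoing conversion toward motor neurons. They are Crabp1, Crabp2, Aldh1a2, Aldh1a3, Rarb, Stra6, Cyp26b1 and Dhrs3, and all 8 symbols were found among the 31744 gene symbols of the deposited matrices. The list was selected on their level per library, their share of cells and their clusters, which were known, so the values below describe the genes and test nothing. The cells were embryonic fibroblasts with an Hb9::GFP reporter that had received 2 constructs, LNI (Lhx3, Ngn2 and Isl1) and DDRR (an activated HRAS with p53DD, a fragment that blocks p53). One library held cells sorted as Hb9::GFP-positive at 14 dpi (the labels' time unit) after culture with BDNF, CNTF, GDNF, FGF and RepSox, an inhibitor of TGF-beta receptor signalling. Another held Hb9::GFP-positive cells at 14 dpi from a culture without these supplements. The remaining library held cells at 4 dpi, cultured with supplements and sorted for low CellTrace-FarRed, a dye diluted by division. They are called here the supplemented 14 dpi library, the unsupplemented 14 dpi library and the 4 dpi library. Both 14 dpi samples were dissociated with papain and DNase and the 4 dpi sample with trypsin, so stage, sort and dissociation differed together, and the unsupplemented 14 dpi library differed from the 4 dpi library in supplements too. With a single library in each group, differences could not be set against replicate spread.

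Retinoic acid is made from retinol in separate enzymatic steps. Stra6, a membrane receptor, lets retinol into cells, retinol dehydrogenases turn it into retinal, and Dhrs3 turns retinal back into retinol. Aldh1a2 and Aldh1a3 oxidise retinal to retinoic acid, the cytosolic proteins Crabp1 and Crabp2 bind the acid, and Cyp26b1 breaks it down. Rarb is one of the nuclear receptors that, paired with a retinoid X receptor, binds DNA and responds to the acid, and it is itself a classical retinoic acid target. In the embryo the acid made beside the neural tube helps specify spinal motor neurons, and it is widely used to direct stem cells toward that fate.

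A script searched promoter windows (250 bases before to 50 after the start site, RefSeq, build GRCm38.p6) for the repeat that receptor pairs are known to bind. One form of the half-site was AGGTCA, another form searched was AGTTCA, a further form of it was GGGTCA and the last form was GGTTCA. They were taken as direct repeats with 1, 2 or 5 bases between them, on both strands. Windows were found for 6 of the 8 genes, and of these only Rarb held a match, a repeat with 5 bases between half-sites that starts 53 bases before the start site. Among 32851 windows of the same length, 0.0974% held the repeat with 5 bases between, 0.222% that with 1 and 0.268% that with 2. The 120 bases before the start site are shown for the receptor gene with the match and for the binding-protein gene with the most UMIs, with the half-sites in capitals. The Rarb stretch is chr14:16575477-16575596 on the minus strand and the Crabp1 stretch is chr9:54764628-54764747 on the plus strand.
Rarb: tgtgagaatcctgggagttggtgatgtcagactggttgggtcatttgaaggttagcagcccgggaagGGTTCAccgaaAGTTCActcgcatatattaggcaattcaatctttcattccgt
Crabp1: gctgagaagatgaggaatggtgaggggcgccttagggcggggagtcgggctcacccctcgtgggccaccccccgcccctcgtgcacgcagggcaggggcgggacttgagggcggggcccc
The Crabp1 stretch is 74.2% G and C, against 46.7% for Rarb. A match describes the letters of a window and does not show that a receptor binds there, and the windows of the other matched genes simply do not hold these letters.

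After filtering, 2314 cells were kept in the supplemented 14 dpi library, 3716 in the unsupplemented one and 4492 at 4 dpi, with 36782509, 45855979 and 12202809 UMIs. Median depth was 14380.5 UMIs per cell with supplements, 10664 without and 2312.5 at 4 dpi, so shares of cells with a UMI are given both as measured and after thinning each cell to 1000 UMIs. Between 3 and 5 cell barcodes were shared by any pair of libraries. Levels are UMIs per 1e6 UMIs of the library (CPM) with exact Poisson 95% intervals, and ratios are log2 ratios with exact binomial 95% intervals. These intervals cover counting error only. The marker lists differed between libraries too. The 18 neuron markers summed to 10812, 6501 and 1797 CPM in the supplemented 14 dpi, unsupplemented 14 dpi and 4 dpi libraries, of which 17, 18 and 10 markers reached 20 CPM. The 20 fibroblast markers summed to 3733, 5151 and 9110 CPM with 18, 20 and 20 at that level, and the 8 cycling markers to 369, 464 and 1128 CPM. The reporter transcript stood at 2445, 1911 and 182 CPM. The part that these differences play in the values of the retinoid genes was not tested, apart from the values within cell classes given below.

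The binding protein Crabp1 set the 3 libraries apart most clearly, and Crabp1 was highest early. Crabp1 had 1203 CPM (1192 to 1214) in the supplemented 14 dpi library, 496 CPM (490 to 503) in the unsupplemented one and 7099 CPM (7052 to 7147) at 4 dpi. The early library was thus the high one, the unsupplemented 14 dpi library was the low one, and no intervals overlapped. A Crabp1 UMI was found in 76.5% of supplemented cells, 56.3% of unsupplemented cells and 94.5% of 4 dpi cells, and after thinning in 41.3%, 21.7% and 89.7% of those cells. Supplemented cells exceeded unsupplemented cells by 1.28 on the log2 scale (1.25 to 1.30). Relative to 4 dpi, the log2 ratio was -2.56 (-2.58 to -2.54) in the supplemented 14 dpi library and -3.84 (-3.86 to -3.82) in the unsupplemented one. These ratios share the 4 dpi library.

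Crabp2, the binding protein known to carry retinoic acid to its nuclear receptors, stood in another order. It had 56.9 CPM (54.5 to 59.4) with supplements at 14 dpi, 40.0 CPM (38.2 to 41.9) without them and 24.9 CPM (22.2 to 27.9) at 4 dpi. Both 14 dpi libraries were above the 4 dpi library, the reverse of Crabp1. Supplemented over unsupplemented cells gave a log2 ratio of 0.51 (0.42 to 0.60), and the ratios to 4 dpi were 1.19 (1.02 to 1.37) with supplements and 0.68 (0.51 to 0.86) without. The gene was detected in 24.1% of supplemented, 22.2% of unsupplemented and 4.45% of 4 dpi cells, and after thinning in 4.42%, 4.20% and 2.40%.

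The synthesis enzymes divided between the cultures. Aldh1a3 had 39.8 CPM (37.8 to 41.9) with supplements, 62.8 CPM (60.6 to 65.2) without them and 17.5 CPM (15.3 to 20.1) at 4 dpi. Its highest level was therefore in the unsupplemented 14 dpi library, with a log2 ratio of -0.66 (-0.75 to -0.57) for supplemented over unsupplemented cells. An Aldh1a3 UMI was found in 21.8% of supplemented, 24.3% of unsupplemented and 3.67% of 4 dpi cells, and after thinning in 3.99%, 5.12% and 2.03%. Relative to 4 dpi, the Aldh1a3 ratio was 1.18 (0.97 to 1.40) with supplements and 1.84 (1.64 to 2.05) without. Aldh1a2, the main synthesis enzyme of the early embryo, was close to absent. It had 76 UMIs in 31 supplemented cells (2.07 CPM, 1.63 to 2.59), 14 UMIs in 9 unsupplemented cells (0.305 CPM, 0.167 to 0.512) and 0 UMIs in 4492 cells at 4 dpi, where 3 UMIs would be 0.246 CPM. Of its 90 UMIs, 76 thus came from the supplemented 14 dpi culture, whose log2 ratio over the unsupplemented one was 2.76 (1.92 to 3.70). Set against 3 UMIs over the 4 dpi library, the Aldh1a2 log2 ratio was 3.07 with supplements at 14 dpi, with a lower limit of 2.74. No difference from 4 dpi is read for the unsupplemented library, since its log2 ratio to that level was 0.31 with a lower limit of -0.18.

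Dhrs3, the retinal reductase that limits retinoic acid formation, gave the largest difference among the 8 genes in the direction of the unsupplemented culture. Dhrs3 had 12.4 CPM (11.3 to 13.6) with supplements, 41.0 CPM (39.1 to 42.8) without them and 16.1 CPM (13.9 to 18.5) at 4 dpi. Only the unsupplemented 14 dpi library was high, and the log2 ratio of supplemented over unsupplemented cells was -1.73 (-1.88 to -1.58). Relative to 4 dpi the Dhrs3 ratio was -0.38 (-0.62 to -0.13) with supplements and 1.35 (1.14 to 1.57) without. The measured share of cells with a Dhrs3 UMI, 11.5% with supplements, 27.3% without and 3.94% at 4 dpi, put the shallow 4 dpi library last. After thinning, the shares were 1.10%, 3.87% and 1.78%, in the same order as the CPM.

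The receptor Rarb was found mainly at 14 dpi. It had 13.9 CPM (12.7 to 15.2) with supplements, 8.33 CPM (7.52 to 9.21) without them and 0.983 CPM (0.508 to 1.72) at 4 dpi, the last from 12 UMIs. Supplemented cells were the highest and no intervals overlapped, with a log2 ratio of 0.74 (0.54 to 0.93) over unsupplemented cells. The ratio to 4 dpi was 3.82 (3.0 to 4.78) with supplements and 3.08 (2.26 to 4.05) without. After thinning, 1.58% of supplemented, 0.785% of unsupplemented and 0.114% of 4 dpi cells held a Rarb UMI.

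Cyp26b1, the degrading enzyme, and Stra6, the uptake receptor, were low throughout. Cyp26b1 had 9.13 CPM (8.18 to 10.2) with supplements, 5.80 CPM (5.12 to 6.54) without them and 4.18 CPM (3.11 to 5.50) at 4 dpi. Its supplemented library was highest (log2 ratio over unsupplemented 0.66, 0.42 to 0.89), and the CPM intervals of the other libraries overlapped. Relative to 4 dpi, the Cyp26b1 ratio was 1.13 (0.70 to 1.58) with supplements and 0.47 (0.04 to 0.93) without. Stra6 had 2.15 CPM (1.70 to 2.68), 2.60 CPM (2.15 to 3.11) and 1.48 CPM (0.874 to 2.33) in the same libraries. All 3 intervals overlapped, and the log2 ratio of supplemented over unsupplemented cells was -0.27 (-0.70 to 0.15). No order of the 14 dpi libraries can be read for Stra6 at this depth. Relative to 4 dpi, where it had 18 UMIs, the Stra6 ratio was 0.54 (-0.21 to 1.37) with supplements and 0.81 without. Cyp26b1 was detected in 8.82% of supplemented, 3.90% of unsupplemented and 0.846% of 4 dpi cells, and Stra6 in 2.46%, 2.56% and 0.401%. After thinning, the shares were 0.657%, 0.352% and 0.388% for Cyp26b1 and 0.263%, 0.244% and 0.114% for Stra6, so the measured gap between the unsupplemented 14 dpi and 4 dpi libraries in Cyp26b1 was not seen at equal depth.

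**Figure D1:**
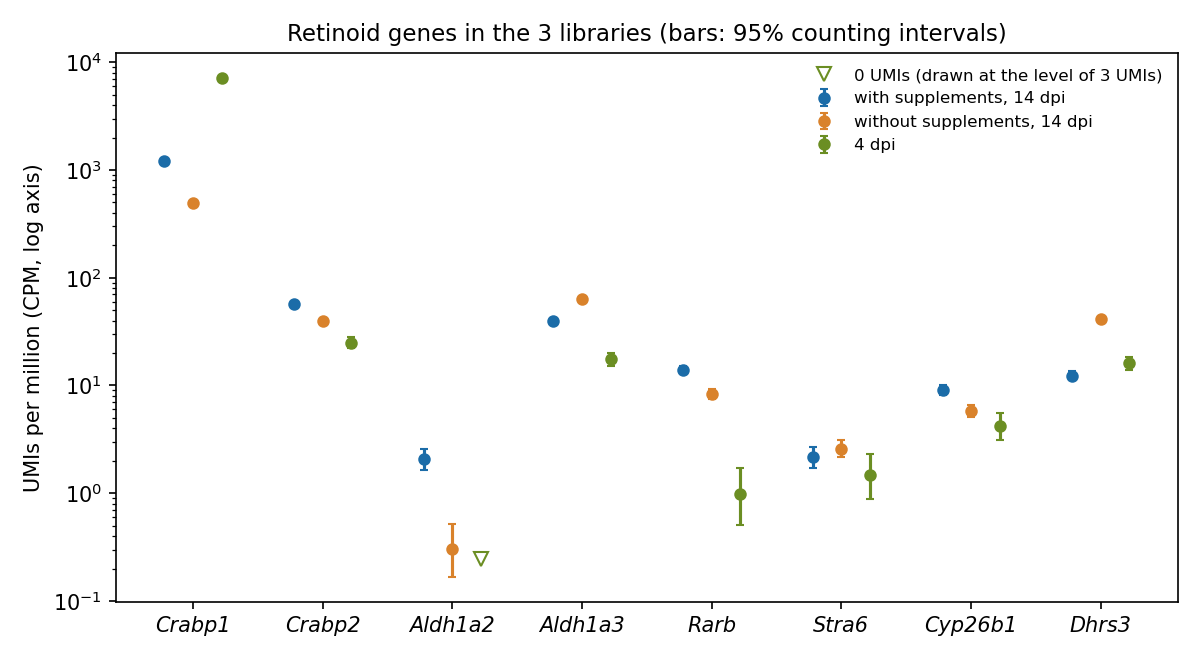
CPM (log axis) of each of the 8 genes in the supplemented 14 dpi (blue), unsupplemented 14 dpi (orange) and 4 dpi (green) libraries, 1 point per library, with exact Poisson 95% intervals as bars and an open triangle at the level of 3 UMIs where none was counted. Crabp1 is highest at 4 dpi at 7099 CPM, while Rarb is lowest there at 0.983 CPM.

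A fixed rule of size was used to set these genes beside all others. A gene entered at 10 CPM or more in either library and was called at 2-fold or more. Between the 14 dpi libraries 5 of the 8 genes entered, and with supplements Crabp1 was called higher and Dhrs3 lower. Among all 9374 symbols entered, 4.79% were called higher and 5.18% lower. The median log2 ratio of the entered members was 0.51, against 0.03 over all symbols entered. Between the supplemented 14 dpi and 4 dpi libraries 5 genes entered, of which Crabp2, Aldh1a3 and Rarb were called higher and Crabp1 lower, where the background was 15.4% higher and 10.1% lower. Leaving out the dividing clusters 3 and 14, described below, Rarb remained the 1 gene called higher, with log2 ratios of 0.94 for Crabp2 and 0.71 for Aldh1a3. Between the unsupplemented 14 dpi and 4 dpi libraries 4 genes entered, with Aldh1a3 and Dhrs3 called higher and Crabp1 lower, beside 15.7% higher and 9.64% lower over all symbols. The medians of the members entered were 1.18 with supplements and 1.02 without, against 0.11 and 0.09 over all symbols, and members that entered through 1 high library had to differ.

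Single cells differed widely in Crabp1, most of all at 14 dpi. Per 10000 UMIs of a cell, the median was 3.59 Crabp1 UMIs with supplements at 14 dpi, 0.875 without them and 64.0 at 4 dpi. Cells with at least 10 per 10000 made up 30.5% (28.6 to 32.4) of supplemented cells, 12.9% (11.9 to 14.0) of unsupplemented cells and 87.9% (86.9 to 88.8) of 4 dpi cells. At 50 or more per 10000 the shares were 4.88%, 0.996% and 59.2%. The counts were uneven at 14 dpi, where the tenth of cells with the most Crabp1 UMIs held 58.9% of them with supplements and 66.5% without, against 30.8% at 4 dpi. Droplets can also hold free RNA, so cells that should lack the gene were examined. Of the 5 macrophage-like cells at 4 dpi (median 1666 UMIs), 2 held Crabp1, with 6 UMIs or 580 CPM (213 to 1263), and none held a UMI of the other 7 genes. The only macrophage-like cell at 14 dpi, unsupplemented with 7959 UMIs, held no Crabp1 UMI and 1 Dhrs3 UMI. How far free RNA enters the low values at 14 dpi was not tested.

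**Figure D2:**
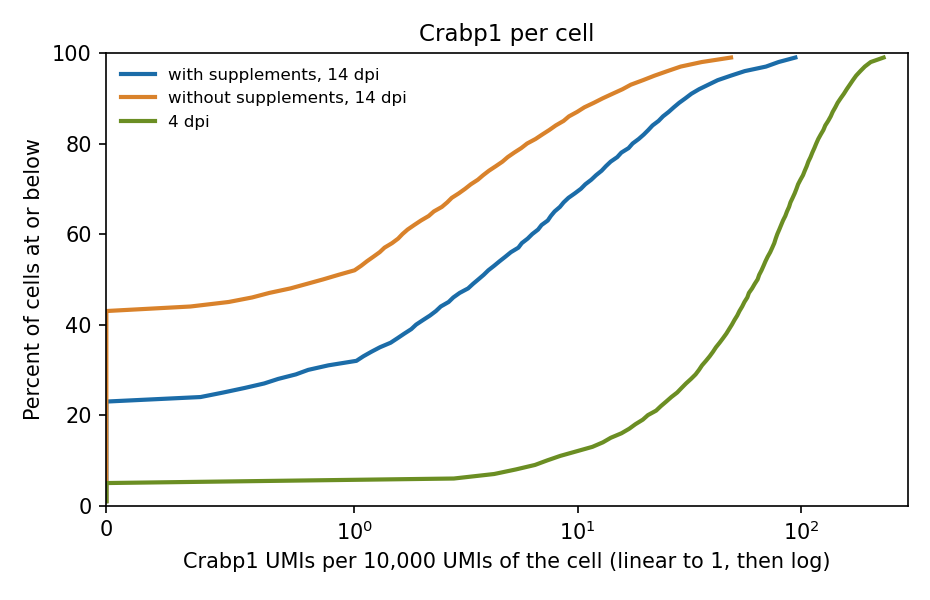
Cumulative percent of cells (vertical axis) at or below each number of Crabp1 UMIs per 10,000 UMIs of the cell (horizontal axis, linear to 1 and then logarithmic), 1 line per library. The 4 dpi line lies to the right of both 14 dpi lines, with medians of 3.59 with supplements and 0.875 without at 14 dpi and 64.0 at 4 dpi.

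The cells of all libraries were clustered without the retinoid genes, and 17 clusters resulted. Clusters 1, 4, 9 and 15 were neuron-like by 18 markers and held 1362 supplemented, 1589 unsupplemented and 9 early cells. Clusters 5 and 10 were fibroblast-like by 20 markers, with 60, 782 and 887 cells. Cluster 9 lay at the edge of the rule, with a score of 2.02 where 2 was needed. Clusters 3 and 14 carried cycling markers, and cluster 11 contractile markers together with all 20 fibroblast markers. Clusters 0, 6, 7, 8, 12, 13 and 16 kept no name. Cluster 8 scored 2.13, but its cells were shallow (median 1194 UMIs) and no neuron marker was among its leading genes. Cluster 0, led by Igf1, Calb1 and Cd36, came almost wholly from the supplemented culture (555 cells), and cluster 6, led by Ccdc88b, Ndst4 and Sct, from the unsupplemented one (737 cells). Cluster 13, with 729 cells at 4 dpi, had Crabp1 itself as its leading gene, and cluster 12 was led by Snhg15 and Chaserr with the stress genes Relb and Atf3. Most clusters came from 1 library each, so a cluster and its library cannot be told apart. Values below are for the 18 library-by-cluster groups of at least 50 cells.

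Every Crabp1 group at 4 dpi lay above every group at 14 dpi. The 5 groups at 4 dpi lay between 2698 CPM in cluster 12 and 9142 CPM in cluster 13, and the 13 groups at 14 dpi between 107 and 1904 CPM. Clusters within 1 library also differed widely. Within the supplemented 14 dpi library, cluster 0 had 1904 CPM, the dividing cluster 3 had 1599, fibroblast-like cluster 5 had 1241, and neuron-like cluster 1 had 948. Neuron-like cluster 4, led by the granzyme genes Gzmd and Gzme, had only 107 CPM (91.4 to 124), 17.8-fold below cluster 0. In the unsupplemented library Crabp1 was highest in cluster 6 at 823 CPM and lowest in neuron-like cluster 15 at 183 CPM, with neuron-like cluster 9 at 380 CPM. The 2 clusters with the highest neuron scores, 15 and 4, therefore held the least Crabp1 of their libraries. At 4 dpi contractile cluster 11 had 8105 CPM and dividing cluster 14 had 6782 CPM.

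Crabp2 had the same highest and lowest clusters as Crabp1 with supplements (0 and 4) and at 4 dpi (13 and 12). Without supplements both were lowest in cluster 15, but the highest clusters differed. With supplements, cluster 0 held 62.4% of its UMIs and 22.3% of all UMIs, at 159 CPM (151 to 168), against 22.6 CPM in neuron-like cluster 1 and 6.87 CPM in cluster 4. Crabp2 is also among the 10 leading genes of cluster 0, although it took no part in the clustering. In the unsupplemented library the highest level was in neuron-like cluster 9, 68.4 CPM (63.2 to 74.0), and the lowest in neuron-like cluster 15, 17.1 CPM (14.7 to 19.8). The neuron-like clusters of that library thus stood at both ends of the Crabp2 range. At 4 dpi cluster 13 had 47.7 CPM and fibroblast-like cluster 10 had 41.3 CPM.

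Aldh1a3 was low in the neuron-like clusters. With supplements these held 20.4% of its UMIs and 61.6% of all UMIs. In that library it had 176 CPM (146 to 210) in fibroblast-like cluster 5, 108 CPM in dividing cluster 3 and 74.5 CPM in cluster 0, against 14.1 CPM in neuron-like cluster 1 and 1.87 CPM in cluster 4. Without supplements it had 137 CPM (127 to 147) in dividing cluster 3, 120 CPM in fibroblast-like cluster 5 and 109 CPM in cluster 6. These 3 clusters were far above neuron-like clusters 9 and 15, at 9.28 and 5.18 CPM. The unnamed cluster 12 of that library was as low, at 7.83 CPM. In the supplemented library a Crabp2 UMI and an Aldh1a3 UMI were often found in the same cells. Of cells with Crabp2, 34.6% also held Aldh1a3, against 17.8% of cells without Crabp2, and the median depths were 16384 and 13658 UMIs. In the unsupplemented library the shares were 31.8% and 22.2%, at 12177 and 10291 UMIs, and the part of depth in these shares was not tested.

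The 31 supplemented cells with Aldh1a2 were scattered. Cluster 0 held 8 of them with 30 UMIs, cluster 1 held 10 with 18 UMIs, cluster 12 held 5 with 13 UMIs, cluster 5 held 4 with 9 UMIs and cluster 3 held 4 with 6 UMIs. No single cell held more than 11. Since mesothelium is a known Aldh1a2 tissue, its 6 markers were read in these cells, where 1 of the 6 had a UMI, and the list summed to 7.11 CPM against 1.44 CPM in the whole library. Over the 31 cells the fibroblast markers summed to 5329 CPM, against 3733 CPM in the library, and the neuron markers to 6364 CPM, against 10812 CPM. Other lists stood higher too. The neural progenitor markers summed to 320 CPM, against 91.9 CPM, the cycling markers to 822 CPM, against 369 CPM, and the glia markers to 26.7 CPM, against 5.00 CPM. Their part in the Aldh1a2 values was not tested.

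Rarb lay mostly in neuron-like cells. Of its UMIs, 79.6% came from neuron-like clusters with supplements, which held 61.6% of all UMIs, the highest share among the 8 genes. Without supplements the share was 59.7%, where these clusters held 43.4% of all UMIs, and the sparse Stra6 had 65.5% of its 119 UMIs there. Without the borderline cluster 9 these shares were 49.5% for Rarb and 21.0% for Stra6, in cells that held fewer of all UMIs. Rarb then had 17.7 CPM in these cells against 8.33 CPM in the library, and Stra6 had 2.35 against 2.60 CPM. The highest supplemented level of Rarb was 33.1 CPM (24.8 to 43.3) in cluster 4, the cluster with the least Crabp1, followed by 17.7 CPM (9.16 to 31.0) in fibroblast-like cluster 5 and 16.7 CPM in cluster 1. In the unsupplemented library Rarb had 18.3 CPM (15.7 to 21.1) in cluster 15 and 4.21 CPM (2.99 to 5.75) in cluster 9, so the neuron-like clusters differed among themselves. No cluster at 4 dpi exceeded 2.13 CPM. Over the 18 groups the Pearson correlation of Crabp1 with Rarb, on the log2(CPM + 10) scale, was -0.64, among groups that share libraries and depth.

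Dhrs3 and Cyp26b1 were highest in fibroblast-like or contractile cells, with exceptions for Cyp26b1. Dhrs3 reached 65.0 CPM (47.2 to 87.3) in cluster 5 with supplements, 104 CPM (96.7 to 111) in the same cluster without them and 37.3 CPM (30.5 to 45.1) in contractile cluster 11 at 4 dpi. These were the highest clusters of their libraries, and cluster 6 followed at 54.3 CPM in the unsupplemented one. Cyp26b1 had 20.6 CPM (14.2 to 28.9) in neuron-like cluster 4 with supplements and 17.7 CPM (9.16 to 31.0) in cluster 5. Without supplements, 52.3% of its UMIs came from cluster 5, at 17.3 CPM (14.5 to 20.4), and at 4 dpi 62.7% came from cluster 11, at 11.4 CPM (7.77 to 16.0). Stra6 stayed below 10 CPM in every group, with 7.39 CPM from 5 UMIs as the highest value.

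**Figure D3:**
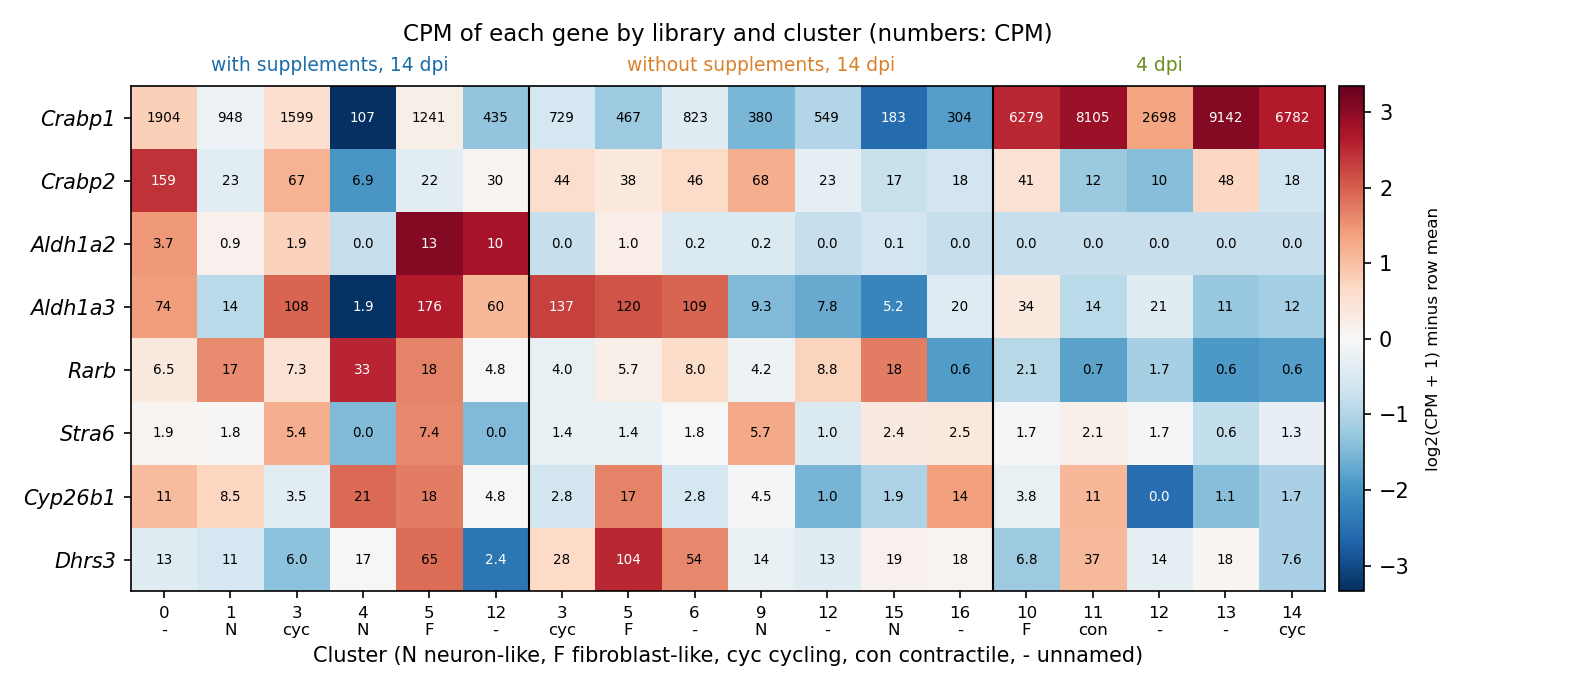
CPM (printed numbers) of the 8 genes in the 18 library-by-cluster groups of at least 50 cells, coloured by log2(CPM + 1) minus the mean of the gene's row. Crabp1 is high in all groups at 4 dpi, Crabp2 peaks at 159 CPM in cluster 0 with supplements, and Aldh1a3 is low in the neuron-like clusters marked N.

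Set directly against each other within a library, neuron-like cells held less of the synthesis and reducing enzymes than fibroblast-like cells. Aldh1a3 had 13.2 CPM in neuron-like and 171 CPM in fibroblast-like cells with supplements (log2 ratio -3.69, -4.00 to -3.37), and 7.38 against 116 CPM without them (-3.98, -4.24 to -3.72). Dhrs3 had 11.3 against 63.1 CPM with supplements (-2.47, -2.94 to -1.98) and 16.8 against 100.3 CPM without them (-2.58, -2.76 to -2.39). Crabp1 had 889 against 1264 CPM with supplements and 276 against 465 CPM without them, so it too was higher in the fibroblast-like cells. Of the 8 genes, 1 was higher in neuron-like cells with supplements, Rarb at 18.0 against 17.2 CPM, where 69.5% of all symbols with a UMI were higher there. Without supplements 3 of the 8 were higher, Crabp2, Rarb and Stra6, where 63% of all symbols were. For Crabp2 this rested on cluster 9, since the other neuron-like cells had 16.6 CPM, against 36.5 CPM in fibroblast-like cells (-1.14, -1.41 to -0.87). Without cluster 9, Stra6 had 2.35 against 1.44 CPM from 25 against 12 UMIs, and the interval of its ratio held 0 (0.71, -0.34 to 1.83). The 69.5% and 63% are not like-for-like backgrounds, since sparse symbols were easily missed in the smaller fibroblast-like pool. That pool held 1.90% of all UMIs with supplements and 18.2% without, against 61.6% and 43.4% in neuron-like cells. By the 2-fold rule 7 genes entered with supplements and none was called higher (background 24.1%) and 3 lower (15.2%), namely Aldh1a2, Aldh1a3 and Dhrs3. Aldh1a2 entered only through the fibroblast-like side (12.9 CPM from 9 UMIs, against 0.795 CPM from 18), so it could be called only lower. Without supplements 6 entered, Rarb was called higher (20.4%), and Aldh1a3, Cyp26b1 and Dhrs3 were called lower (11.2%). Here Aldh1a3 and Cyp26b1 (16.7 against 3.11 CPM) entered only through the fibroblast-like side and could be called only lower. Rarb entered only through the neuron-like side (11.4 against 5.51 CPM) and could be called only higher. The supplemented fibroblast-like class held only 60 cells.

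The difference between the 14 dpi cultures was then taken within cell classes, whose cells came from different clusters. The neuron-like cells were mostly of cluster 1 with supplements (1230 cells), and of clusters 9 (802) and 15 (749) without them. Crabp1 was higher with supplements within neuron-like cells (889 against 276 CPM, log2 ratio 1.69, 1.64 to 1.73), within fibroblast-like cells (1.44, 1.34 to 1.55) and within dividing cluster 3 (1.13, 1.07 to 1.2). In stress cluster 12 it was not (435 against 549 CPM, -0.33, -0.51 to -0.16). Under other choices of clusters the Crabp1 ratio ranged from 0.44 to 2.25 in neuron-like cells and from 1.44 to 2.10 in fibroblast-like cells. Dhrs3 was lower with supplements within each of these classes, with log2 ratios of -0.57 in neuron-like cells, -0.67 in fibroblast-like cells, -2.21 in cluster 3 and, from 3 against 13 UMIs, -2.40 in cluster 12. In neuron-like and fibroblast-like cells these ratios were smaller than the -1.73 of all cells. Under other choices of clusters they ranged from -1.37 to -0.39 in neuron-like cells and from -1.46 to -0.07 in fibroblast-like cells.

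For Aldh1a3 and Crabp2 the sign of the ratio differed between classes and with the clusters counted. Aldh1a3 was higher with supplements within neuron-like cells (13.2 against 7.38 CPM, log2 ratio 0.84, 0.55 to 1.13), within fibroblast-like cells (171 against 116 CPM, 0.55, 0.27 to 0.83) and within cluster 12 (60.1 against 7.83 CPM, 2.94, 1.89 to 4.20), although it was lower over all cells. In cluster 3 it was lower (-0.34, -0.53 to -0.15), and in neuron-like cells the ratio was -1.43 when the cells with the highest doublet scores were left out of the clustering. The supplemented library held 60 fibroblast-like cells, against 782 in the unsupplemented one. Crabp2 was lower with supplements in neuron-like cells (21.3 against 40.7 CPM, -0.93, -1.10 to -0.77), although higher over all cells, where cluster 0 carried most of it. That direction rested on cluster 9, which held 634 of the 811 unsupplemented UMIs. Without it Crabp2 had 21.4 CPM with supplements against 16.6 CPM without them in neuron-like cells (0.36, 0.11 to 0.62). In cluster 3 the Crabp2 ratio was 0.60 (0.32 to 0.87), in cluster 12 it was 0.38 (-0.40 to 1.18) and in fibroblast-like cells -0.21 (-0.91 to 0.41). Rarb was higher with supplements in neuron-like cells (18.0 against 11.4 CPM, 0.65, 0.41 to 0.89), which also rested on cluster 9. Without that cluster Rarb had 18.1 against 17.7 CPM (0.03, -0.23 to 0.28). In fibroblast-like cells Rarb was higher with supplements (1.64, 0.59 to 2.58, from 12 UMIs against 46). Cyp26b1 had 9.27 CPM with supplements against 3.11 CPM without them in neuron-like cells (1.58, 1.16 to 2.01), below the 10 CPM of the rule. By that rule Crabp1 was the 1 member called in neuron-like cells (5 entered, background 5.5% higher and 6.04% lower). Its lowest ratio there under other choices of clusters, 0.44, was below 2-fold. Without cluster 9 Aldh1a3 passed 2-fold as well (1.21, 0.81 to 1.63), entering only through the supplemented side (13.2 against 5.72 CPM). In fibroblast-like cells Crabp1, Aldh1a2 (9 against 8 UMIs) and Rarb were called higher of 7 entered (8.32% higher, 8.28% lower). Aldh1a2 (12.9 against 0.959 CPM) and Rarb (17.2 against 5.51 CPM) entered only through the supplemented side, so they could be called only higher. In cluster 3, Crabp1 was called higher and Dhrs3 lower of 4 entered (8.61% higher, 5.5% lower), and in cluster 12, Aldh1a2 and Aldh1a3 were called higher and Dhrs3 lower of 5 entered (9.71% higher, 6.31% lower). Dhrs3 entered only through the unsupplemented side in cluster 3 and in cluster 12 (2.40 against 12.7 CPM), so it could be called only lower. In cluster 12, Aldh1a2 (13 supplemented UMIs) and Aldh1a3 (60.1 against 7.83 CPM) entered only through the supplemented side, so they could be called only higher.

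**Figure D4:**
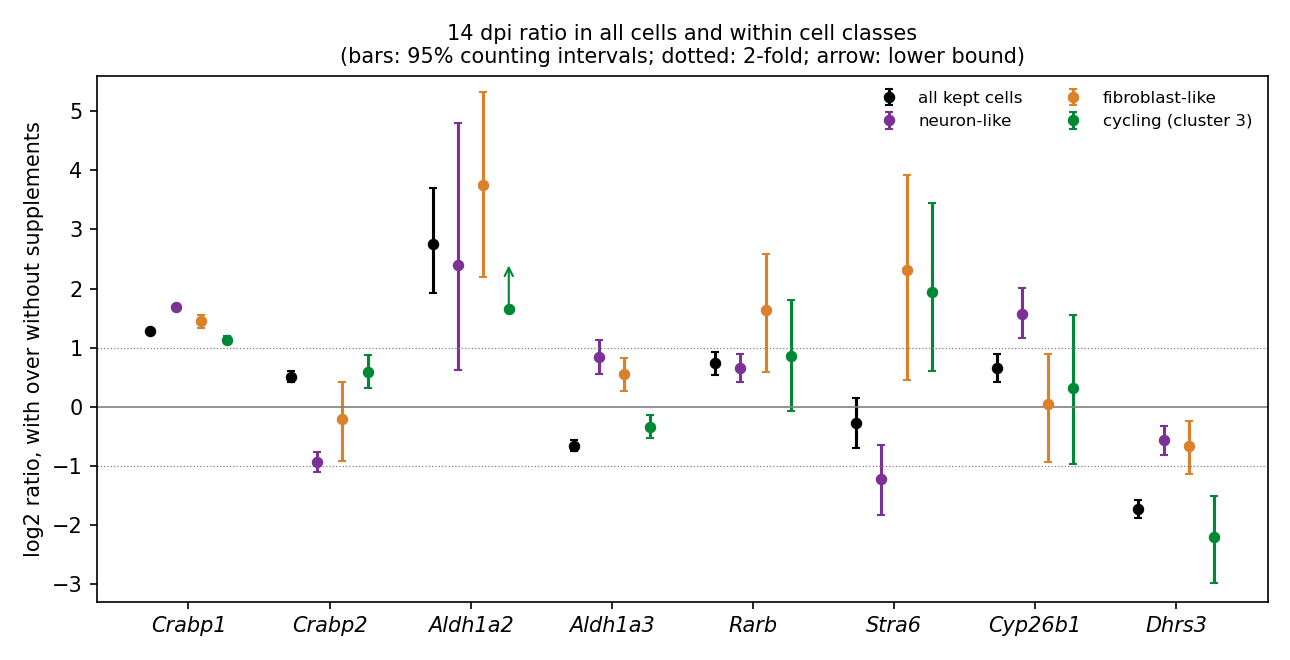
Log2 ratio of supplemented over unsupplemented 14 dpi cells (vertical axis) for each gene, in all kept cells (black), neuron-like cells (purple), fibroblast-like cells (orange) and cycling cluster 3 (green), with 95% counting intervals as bars and an arrow where the ratio is a lower bound. Crabp1 is above 1 in all 4, while Aldh1a3 is -0.66 in all cells and above 0 in neuron-like and fibroblast-like cells.

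The remaining 62 genes of the retinoid lists were examined by the same rule. Between the 14 dpi libraries 19 entered, at a median log2 ratio of 0.27 against 0.03 over all symbols. Over all symbols entered, 4.79% were called higher and 5.18% lower. Among those called lower with supplements were a pair of receptors. Rara, a retinoic acid receptor, had 6.99 CPM with supplements, 28.3 CPM without them and 11.4 CPM at 4 dpi (supplemented over unsupplemented -2.02, -2.22 to -1.83). Rarg, its relative, had 4.08, 11.8 and 11.6 CPM (-1.54, -1.81 to -1.27). Both receptors entered only through the unsupplemented library, so they could be called only lower. With supplements Rara and Rarg were thus the lowest of the 3 libraries, where Rarb was the highest. The 2 genes called higher were Dhrs4, a retinal reductase (29.0, 14.1 and 46.5 CPM, ratio 1.04), and Meis1, a homeobox cofactor known to respond to retinoic acid (31.2, 13.4 and 52.9 CPM, ratio 1.21).

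Against 4 dpi, the retinoid X receptor Rxrg followed the course of Rarb in the library totals, but not over clusters. With supplements cluster 4 had 1.87 CPM of Rxrg and 33.1 CPM of Rarb, while cluster 0 had 35.7 CPM of Rxrg and 6.46 CPM of Rarb. Over all cells Rxrg had 19.6 CPM with supplements at 14 dpi, 14.2 CPM without them and 1.07 CPM at 4 dpi, with log2 ratios to 4 dpi of 4.20 (3.42 to 5.12) and 3.73 (2.95 to 4.65). With supplements 20 of the 62 entered, with Rxrg called higher and the homeobox gene Hoxb4 (-1.35), the lipoprotein lipase Lpl (-1.35) and Rarg (-1.50) lower, at a median of -0.28 against 0.11 over all symbols. Without supplements 21 entered, with Rxrg, Rara (1.31) and the retinal reductase Rdh11 (1.30) higher and Hoxb4 (-2.58), Meis1 (-1.98), Lpl (-1.76), Dhrs4 (-1.72) and Akr1b10 (-1.57) lower, at a median of -0.01 against 0.09. Over all symbols entered, 15.4% were called higher and 10.1% lower with supplements, and 15.7% and 9.64% without them. Rxrg entered only through the 14 dpi libraries. Hoxb4 and Lpl entered only through 4 dpi, as did Rarg with supplements and Akr1b10 without them. Each of these could be called only toward the library it entered through. The other synthesis enzymes of the list were near 0. Aldh1a1 had 3, 0 and 2 UMIs in the supplemented 14 dpi, unsupplemented 14 dpi and 4 dpi libraries, Aldh1a7 had 0, 9 and 1, and Aldh8a1 had 11, 10 and 1. Of the degrading enzymes, Cyp26a1, a sensitive target of retinoic acid, had 8, 6 and 6 UMIs and Cyp26c1 had none in any library.

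**Figure D5:**
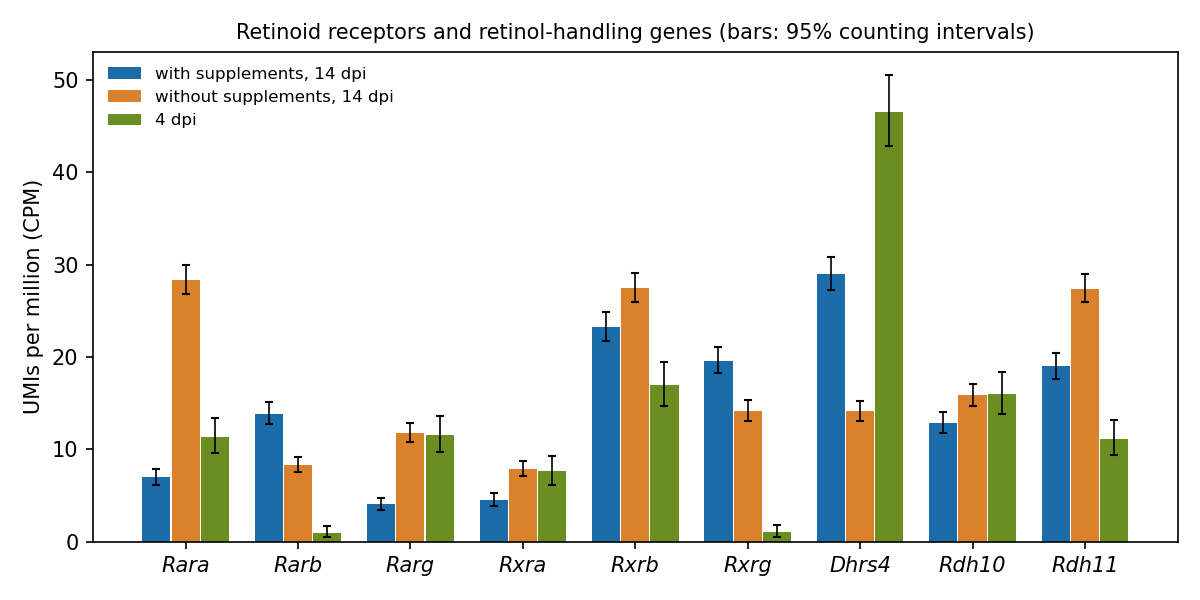
CPM of retinoid receptors and retinal- or retinol-handling genes in the supplemented 14 dpi (blue), unsupplemented 14 dpi (orange) and 4 dpi (green) libraries, with exact Poisson 95% intervals as error bars. Rara reaches 28.3 CPM in the unsupplemented library, while Rarb and Rxrg are near 1 CPM at 4 dpi.

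For each gene, the genes most alike over the 18 groups were ranked by Pearson correlation of log2(CPM + 10) among 11683 genes. Groups of 1 library share its depth and culture, so these values are descriptions. Crabp1 was most like Nme4 (0.92), Golm1 (0.92), Nmnat1 (0.91), Cryz (0.91) and Cdk4 (0.90). Aldh1a3 was most like Crym (0.95), Igfbp3 (0.90), Spry1 (0.89), Nrgn (0.88) and Fzd1 (0.87), and Dhrs3 like Tnfsf12 (0.88), C1qtnf6 (0.88), Tmem176a (0.86), Ltbp3 (0.86) and Lama2 (0.86). Rarb was most like Tmem229b (0.92), Epg5 (0.90), Lmbr1 (0.89), 1500011B03Rik (0.89) and Shc4 (0.88). Weaker likeness was found for Crabp2, with Msx1 (0.76), Rbm24 (0.74), Sapcd1 (0.73), H3f3a (0.72) and Stxbp6 (0.71), and for Cyp26b1, with Krtcap2 (0.84), Crtc3 (0.83), Arhgef3 (0.82), Yipf5 (0.81) and Cst3 (0.78). The ranking is not read for Aldh1a2, with 90 UMIs in all, and Stra6 did not reach the level needed. Among the members themselves, Aldh1a3 correlated with Crabp2 at 0.48 and with Dhrs3 at 0.42, and Crabp1 with Crabp2 at 0.15. The last value pools libraries whose totals for the binding proteins stood in different orders. Within a library, Crabp1 and Crabp2 mostly shared their highest and lowest clusters.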

How the data were processed

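Per the labels, 3 samples were prepared with the 10x Genomics 3′ chemistry. The authors deposited raw counts of UMIs per gene and barcode. Per the file headers these came from Cell Ranger 6.1.1. The submitters' processing notes name GRCm39 as the build. Cell calling and the use of intronic reads are not given in the sources used here. Features of 1 symbol were summed. A barcode was kept at 500 genes or more and no more than 20% mitochondrial UMIs, which removed 153, 177 and 110 from the supplemented 14 dpi, unsupplemented 14 dpi and 4 dpi libraries (37112015, 46150432 and 12290301 deposited UMIs). Thinning to 1000 UMIs left out 31, 22 and 113 shallower cells. Scrublet called 3, 2 and 2 doublets, too few to have worked, so doublets were kept.

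Cells were scaled to 10000 UMIs, log-transformed and clustered together with scanpy 1.11.5. Of 2000 variable genes, 17 retinoid genes were left out, and 30 components, 15 neighbours and Leiden resolution 1 were used. Neuron-like clusters scored at least 2 and fibroblast-like ones -2 or less on mean log2((CPM + 10)/10) of neuron minus fibroblast markers, with at least 15 markers at 20 CPM. A cluster lost such a name where another list had more of the 10 leading genes (clusters 11 and 14), or where a very low depth came with no such marker among those genes (cluster 8). Other classes needed 3 markers at that level, a mean of 1.5 and 2 markers among the 10 leading genes. These thresholds came from an earlier analysis of these data, and the members and lists were chosen with earlier results known. With 1 library per group no test was run. The result of 1 other list gene is not reported here. The ratio script was tested on simulated data. All 8 members are named, with other list genes called by the 2-fold rule and the 5 genes most like each member. Promoters come from RefSeq (GRCm38.p6), another build than that of the counts, so only the promoter windows are placed. Alternatives for the cell filter, doublets, scaling, thresholds, thinning and clustering are given at the end.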

Additional observations from a re-analysis of the deposited data

How the results depend on the processing

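No paired analysis was possible because each group has 1 library. Counts of members called changed with the size and level asked. Between the 14 dpi libraries, the number higher with supplements was 2 at 1.5-fold, 0 at 3-fold and 2 at a minimum of 1 CPM or with no minimum, and the number lower was 2 at 1.5-fold. For the supplemented 14 dpi library over 4 dpi, the number higher was 1 at 3-fold, 5 at 1 CPM, 5 with no minimum and 1 without dividing clusters 3 and 14, a choice made after seeing the data. For the unsupplemented 14 dpi library over 4 dpi it was 1 at 3-fold. With the retinoid genes kept in the clustering, 0 members were higher in neuron-like than in fibroblast-like cells with supplements. For the last of these the cause was not tested. The other 70 of 81 alternative counts of members stayed within 1.5 times the main count. Of 190 alternative log2 ratios of members, 158 moved within counting error, as did 142 of 192 levels and 28 of 72 shares of cells after thinning, and 24 of 72 counts of the other retinoid genes moved by more than 1.5 times. The ratio changed sign for Stra6 between the 14 dpi libraries in 1 of 8 alternatives and for Aldh1a2, unsupplemented over 4 dpi, in 2 of 7. Crabp1 stayed between 1.19 and 1.35 between the 14 dpi libraries, and Dhrs3 between -1.87 and -1.71. The shares of member UMIs by class moved in 100 of 185 alternatives. Within neuron-like cells, under 5 other choices of clusters made after seeing the data, the ratio with over without supplements ranged from -1.19 to 0.36 for Crabp2, from -1.43 to 1.21 for Aldh1a3, from 0.03 to 0.64 for Rarb and from 0.44 to 2.25 for Crabp1. Resolution 0.5 gave no value there. Depth limits Aldh1a2, Stra6 and, at 4 dpi, Rarb and Cyp26b1, each with at most 119 UMIs in a library.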
